A study of Homo sapiens with 9 samples.

Results

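The 49 genes described here copy the genome: they license and fire replication origins, synthesise and join DNA, supply deoxynucleotides, rebuild chromatin behind the fork and set the entry into S phase. They were taken by a list of gene symbols, not by measured values, and all 49 were found by their Ensembl identifiers among the 60671 genes in the files. H295R is an established human adrenocortical carcinoma line that makes steroid hormones. RNA was sequenced from 3 groups of 3 libraries: H295R cells with no stated change (WT), H295R cells labelled as SGPL1 knockout (KO) and H295R cells labelled as SGPL1 overexpression (OE). SGPL1 is sphingosine-1-phosphate lyase, which breaks down the lipid signal sphingosine-1-phosphate, and the series asks what its level does in adrenocortical carcinoma. No treatment is stated for any group. The sources used here give neither the edit in the KO cells, nor the construct in the OE cells, nor how many clones stand behind each. Replicates are called biological, but no separate cultures are described, so a p-value here measures only how far these 9 libraries vary, and some of that may be technical.

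The deposited values are read counts per gene, given below as CPM, counts relative to the scaled library total. Libraries held 8006873 to 10895080 counts. SGPL1 (chr10:70815948-70881184) stood at 102, 83.4 and 98.1 CPM in the WT libraries, at 47.2, 43.9 and 53.8 in KO, with 98.1, 81.3 and 101.2 in the OE-labelled libraries. It was lower in KO than in WT by -0.97 ± 0.14 on the log2 scale (SE; adjusted p = 0.000105, edgeR's quasi-likelihood test, n = 3 libraries per group). The OE-labelled libraries did not show more SGPL1 RNA than WT (log2 fold change -0.01 ± 0.14, adjusted p = 0.966; 0.32 ± 0.11, adjusted p = 0.04, with the correction for transcript length described below). The counts as scaled thus do not bear out the label, and each direction below is that of the OE-labelled libraries. Summed CPM of 10 adrenocortical markers was 1763 to 1971 in WT, 2205 to 2608 in KO and 2289 to 2708 in OE. Summed CPM of 5 epithelial markers was 27.1 to 31.1 in WT, 14.4 to 17.8 in KO and 30.1 to 34.6 in OE. The adrenocortical sum was thus higher in KO and in OE than in WT, and the epithelial sum lower in KO, without overlap. Their part in the results on the members was not tested. The epithelial sum was mostly EPCAM, at 23.18 to 28.12 CPM in WT and 10.51 to 12.75 in KO. Mean CPM in WT and KO was 2.33 and 2.67 for KRT18, 0.31 and 0.95 for KRT8, and 0.46 and 0.07 for CDH1. KRT19 had 0.08 and 0. Of the 10 adrenocortical markers, 8 were higher and 2 lower than in WT, in KO and again in OE. CYP17A1 was lower in both, with means of 68.04, 58.89 and 59.49 CPM in WT, KO and OE. Summed CPM of 7 fibroblast markers was 17.2 to 27.5 in WT, 17.1 to 19.2 in KO and 11.9 to 16.8 in OE. Of these, COL3A1 had means of 11.5, 3.75 and 3.93 CPM in WT, KO and OE, COL1A1 10.6, 12.1 and 9.68, and PDGFRB 0.08, 2.08 and 0.06. Over all libraries, 6 leukocyte markers summed to 1.38 to 3.39 CPM and 5 endothelial markers to 0 to 0.69.

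In G1 the origin recognition complex, with CDC6 and CDT1, loads the MCM2 to MCM7 ring onto DNA. At the start of S phase cyclin E and its kinase, and then CDC45 and the GINS complex, turn the ring into an active helicase. DNA polymerase alpha with primase starts each strand, the RFC complex loads the PCNA clamp, and polymerases delta and epsilon extend. E2F transcription factors drive many of these genes, and E2F2, E2F1 and CCNE1 are both members here and parts of that switch.

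E2F letters lay in most of the members' promoters. Windows of 300 bases (250 before and 50 after the start) from RefSeq (GRCh38.p14) were found for 42 of the 49 members, which had 55 windows. The E2F core was searched on both strands as the letters TTCCCGC, likewise with TTGGCGC, also in the form TTCGCGC, and finally with the spelling TTGCCGC. It lay in 35 of the 55 windows (63.6%), in 13% of all 35116 windows and in 19.0% of the 15519 windows of genes tested for expression. A CCAAT box (CCAAT, both strands, whose reverse can overlap TTGGCGC) lay in 56.4% of member windows and 35.1% of windows of tested genes. The CHR element of late cell cycle genes (TTTGAA, or alternatively TTCGAA, both strands) lay in 3.64% of member windows and 11.9% of windows of tested genes. A match is a description of the letters, not a bound site. Shown are the stretches before the start of the 5 members with the largest falls in the OE-labelled libraries and of PCNA, which was lower in KO. Each is 120 bases long, 5′ to 3′ on the gene's strand, holds no exon base of the gene in GENCODE release 29 or in the annotation the counts used, and has E2F cores in capitals.
UHRF1: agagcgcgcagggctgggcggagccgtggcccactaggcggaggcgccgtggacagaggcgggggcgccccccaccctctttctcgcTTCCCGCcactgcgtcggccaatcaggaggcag
CHAF1A: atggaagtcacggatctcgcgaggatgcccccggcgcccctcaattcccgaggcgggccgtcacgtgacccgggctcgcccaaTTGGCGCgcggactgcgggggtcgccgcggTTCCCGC
POLE: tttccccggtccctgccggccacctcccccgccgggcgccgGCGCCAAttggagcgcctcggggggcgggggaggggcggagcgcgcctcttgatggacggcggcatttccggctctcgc
POLA1: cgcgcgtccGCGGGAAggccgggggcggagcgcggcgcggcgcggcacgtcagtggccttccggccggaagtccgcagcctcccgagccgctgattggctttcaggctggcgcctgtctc
RFC1: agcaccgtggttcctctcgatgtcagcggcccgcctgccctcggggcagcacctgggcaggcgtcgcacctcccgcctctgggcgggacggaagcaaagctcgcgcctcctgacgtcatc
PCNA: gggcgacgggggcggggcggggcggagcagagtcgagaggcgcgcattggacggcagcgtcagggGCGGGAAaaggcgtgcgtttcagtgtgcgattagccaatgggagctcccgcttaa

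Their positions are chr19:4909310-4909429 (plus strand) for UHRF1, chr19:4402520-4402639 (plus strand) for CHAF1A, chr12:132687377-132687496 (minus strand) for POLE, chrX:24693789-24693908 (plus strand) for POLA1, chr4:39366376-39366495 (minus strand) for RFC1 and chr20:5126627-5126746 (minus strand) for PCNA. Counted back from the start, the cores begin at -104 in UHRF1, at -37 and -7 in CHAF1A, at -113 in POLE, at -120 in POLA1 and at -59 in PCNA. The UHRF1 stretch lies inside the gene's span, before a second start. The RFC1 stretch holds no core, but its whole window holds 2 matches that overlap, 1 per strand, at 34 and 37 after the start. The whole windows of MCM6 and MCM3, which were called in no comparison, held 4 and 3 cores, while those of MCM10 and SLBP, which were called, held none.

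Most members were not called. Of the 48 that passed the filter on low counts, 30 were called in none of the 3 comparisons at an adjusted p under 0.05, and 18 (37.5%) were called in at least 1, against 48.1% of the 14150 genes tested. No member changed 2-fold in KO against WT (largest log2 difference 0.60) and 1 did in the OE-labelled libraries (RFC1, 1.08). These members had 57 to 4344 counts per library, and the median SE of their log2 fold changes in KO against WT was 0.137. Between replicates, the median coefficient of variation of the 49 members was 9.08% in WT, 7.23% in KO and 11.6% in the OE-labelled libraries, against 15.1%, 13.3% and 15.7% over all genes tested. The members and all genes were not matched for level in that comparison. The 49 members summed to 5736, 6091 and 5572 CPM in WT, to 6096, 5959 and 5839 in KO, with 5286, 5725 and 5446 in the OE-labelled libraries, so the OE range overlapped that of WT. In bulk RNA, fewer cells in S phase and less RNA per cell cannot be told apart. Replicate 2 stood highest within its group for 27 of the 49 members in WT and 26 in OE, and replicate 1 for 24 in KO, in libraries where 38%, 41.3% and 36% of all genes stood highest too.

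**Figure D1:**
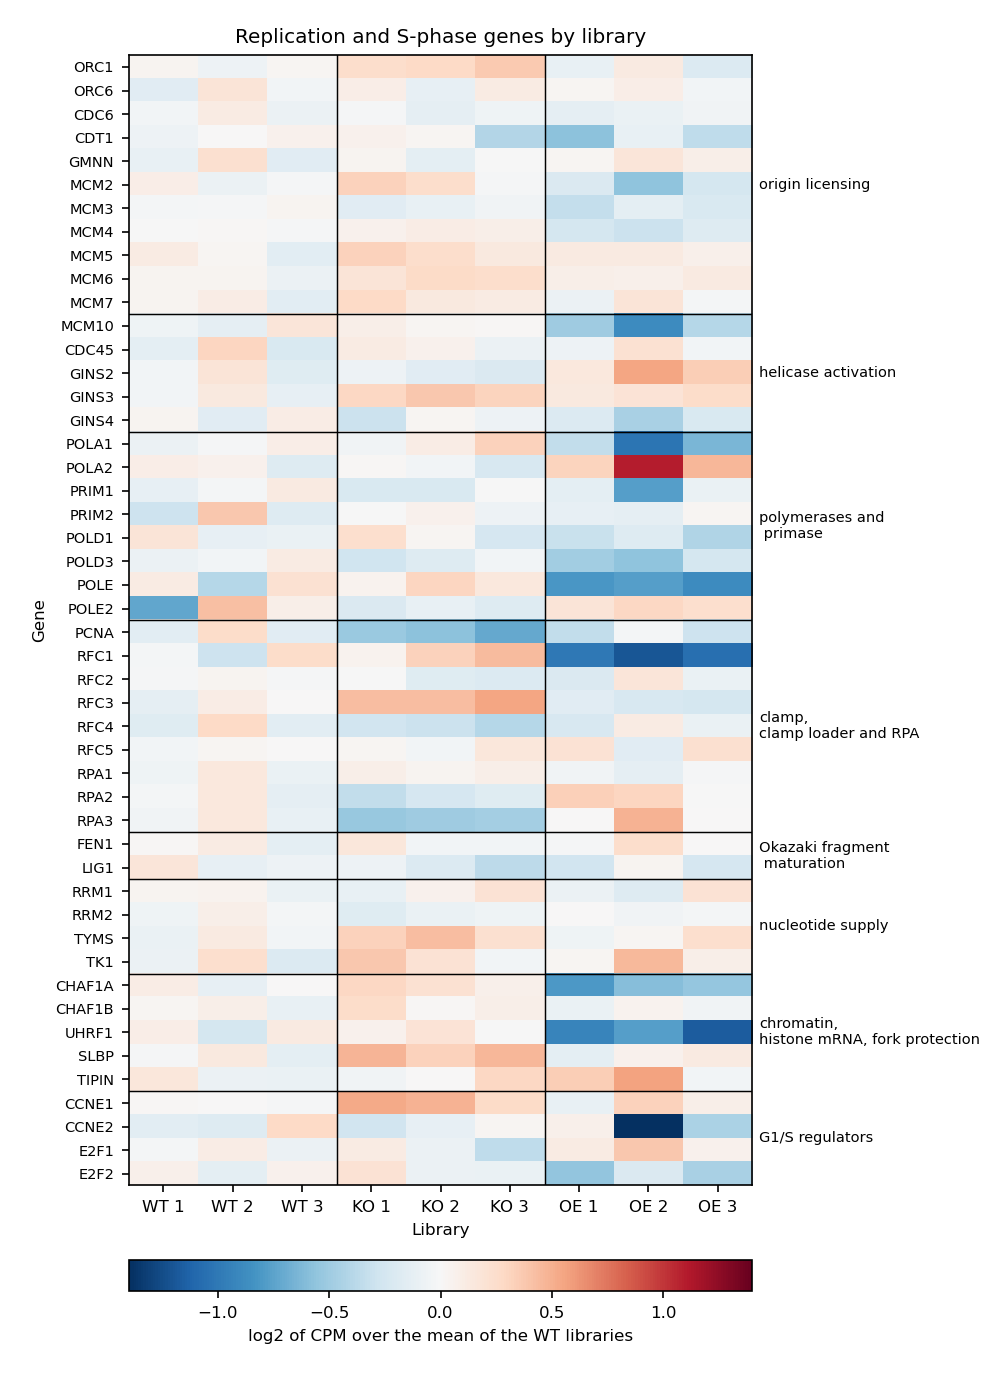
Level of each tested member in each of the 9 libraries, as log2 of CPM over the mean of the WT libraries (colour; red higher, blue lower), with genes in rows grouped by role and libraries in columns. Most rows are pale, while RFC1, UHRF1, POLE and CHAF1A are blue in all 3 OE-labelled libraries and PCNA and RPA3 are blue in all 3 KO libraries.

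Against WT, the KO libraries had 3 members higher (RFC3, SLBP and CCNE1) and 2 lower (PCNA and RPA3). That is 6.25% and 4.17% of the 48 tested, while 9.16% of all genes tested were called higher and 9.6% lower (18.8% in either direction), so both shares lie below the background. The median log2 fold change of the members was 0.03 and that of all genes -0.01. Without overlap between the groups, 10 members stood higher and 6 lower in KO (17.6% and 17.6% of all genes).

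The OE-labelled libraries had 1 member higher than WT (POLA2) and 7 lower (RFC1, UHRF1, POLE, CHAF1A, POLA1, MCM10 and POLD3). That is 2.08% and 14.6% of the 48, against 9.65% of all genes called higher and 11% called lower (20.7% in either direction). The members' median log2 fold change was -0.04 and that of all genes -0.01. Without overlap, 3 members stood higher and 15 lower, where 17.8% and 18.6% of all genes did. Scaled by library totals alone, the median of all genes in this comparison moved to -0.13, 13 members were called lower and none higher, and 25.9% of all calls were of higher genes in place of 46.7%.

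OE against KO, which shares its libraries with both comparisons above, had 5 members higher (GINS2, POLA2, PCNA, RPA2 and RPA3) and 11 lower (MCM2, MCM4, MCM10, POLA1, POLE, RFC1, RFC3, CHAF1A, UHRF1, SLBP and E2F2). These are 10.4% and 22.9% of the members, beside 19% and 20.6% of all genes (39.7% in either direction). MCM10, POLA1, POLE, RFC1, CHAF1A and UHRF1 were lower in the OE-labelled libraries than in either other group, and POLA2 was higher than in either. PCNA and RPA3 were lower in KO than in either other group, and RFC3 and SLBP higher. Of these calls for OE against KO, that of PCNA (0.39, adjusted p = 0.0252) was lost with a correction for transcript length (0.12, adjusted p = 0.33) or gene length (0.03, adjusted p = 0.818), and without KO replicate 2, KO replicate 3 or OE replicate 2 (adjusted p = 0.0665 to 0.1). With transcript length RPA3 moved from 0.68 to 0.27 (adjusted p = 0.0554) and MCM10 from -0.62 to -0.32 (adjusted p = 0.0593). SLBP was not called without OE replicate 1 (adjusted p = 0.0575). The plot of fold changes gives each member's 95% interval.

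**Figure D2:**
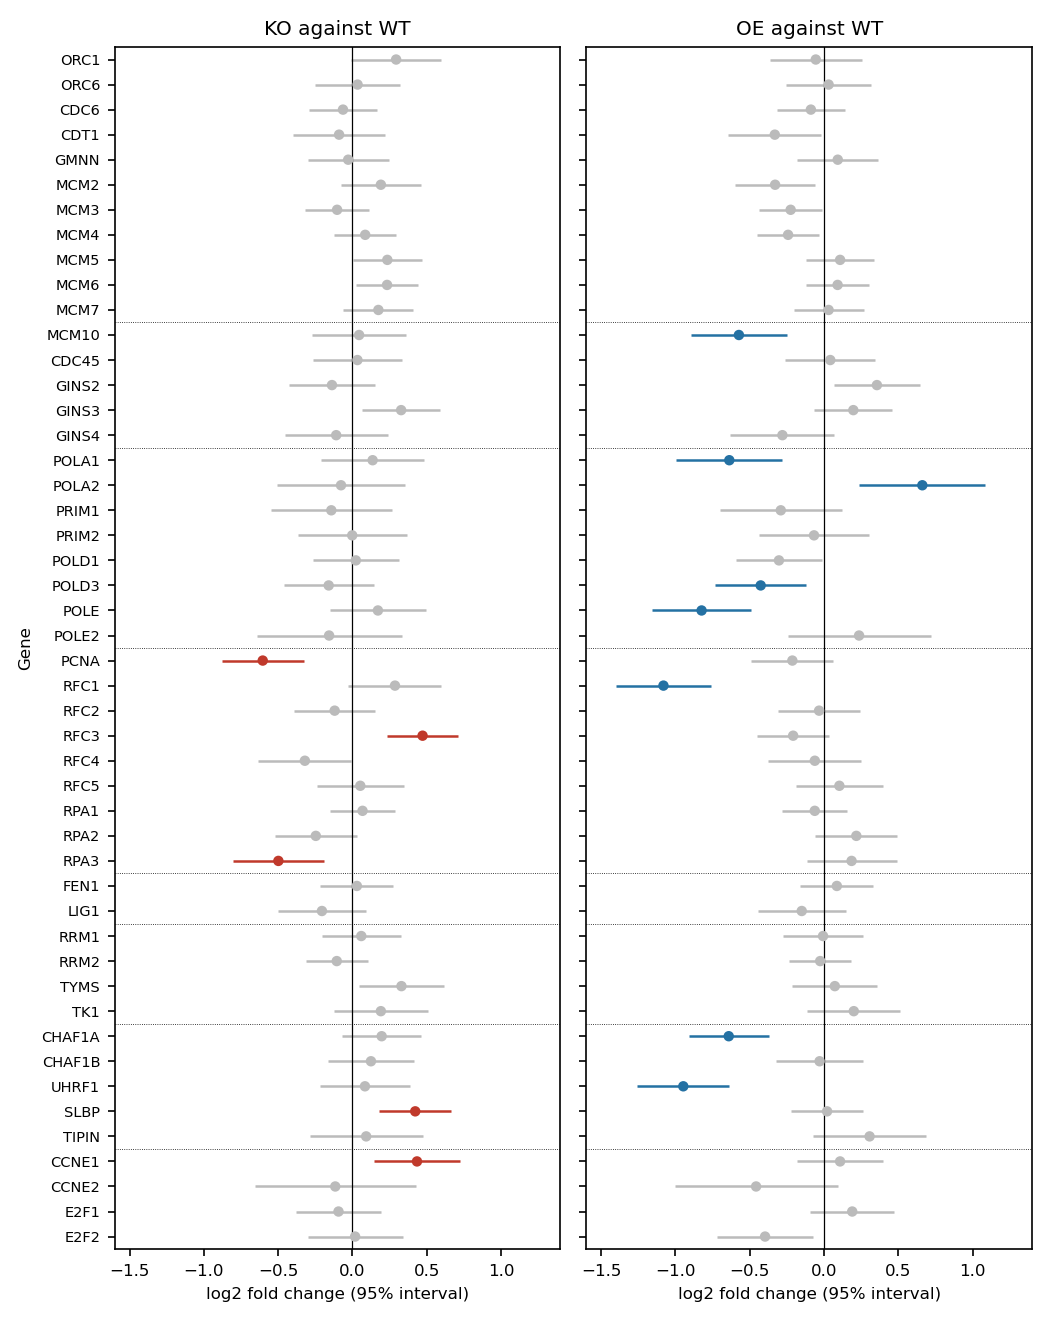
Log2 fold change of each tested member against WT with its 95% interval (x axis), in KO (left) and in the OE-labelled libraries (right), with coloured points for an adjusted p under 0.05. Coloured points number 5 on the left, where the lowest is PCNA, and 8 on the right, where the lowest is RFC1.

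The origin licensing genes (ORC1, ORC6, CDC6, CDT1, GMNN and MCM2 to MCM7) had no call against WT: 0 of 11 in either comparison by edgeR (18.8% of all genes called in KO and 20.7% in OE), by DESeq2 or by limma-voom. At an unadjusted p under 0.05 there were 2 in KO (MCM5 and MCM6) and 4 in the OE-labelled libraries (CDT1, MCM2, MCM3 and MCM4). These are 18.2% and 36.4% of the 11, where 30.9% and 34.8% of all genes tested lay under that p. Their median log2 fold change was 0.09 in KO and -0.06 in the OE-labelled libraries. Some other settings did call licensing genes lower in OE than in WT. With library totals alone these were CDT1, MCM2, MCM3 and MCM4. With the correction for gene length they were CDT1 (-0.51, adjusted p = 0.00785), MCM2 and MCM3. MCM2 was also called with the replicate number as a block, and CDT1 with WT replicate 2 and OE replicate 2 both left out. The correction for transcript length called none of the 11 against WT. MCM2, a subunit of the ring, had 193, 172 and 179 CPM in WT, 228, 215 and 180 in KO, with 158, 123 and 153 in the OE-labelled libraries. The OE values thus lay below all others without overlap, for a log2 fold change of -0.33 ± 0.13 against WT (adjusted p = 0.0772) and -0.52 ± 0.13 against KO (adjusted p = 0.00411). MCM4, another subunit, had 285, 291 and 285 CPM in WT, 300, 309 and 305 in KO, then 243, 232 and 253 in OE. It fell against KO by 0.33 on the log2 scale (adjusted p = 0.0141), a call lost when fold changes were corrected for transcript length (adjusted p = 0.055). ORC1, the large subunit of the origin recognition complex, had 28.8, 26.9 and 28.8 CPM in WT, 33.3, 34.0 and 36.3 in KO, then 26.2, 30.7 and 24.6 in OE. KO lay above both other groups, yet neither difference passed the test (adjusted p = 0.179 against WT and 0.0646 for OE against KO). MCM5, MCM6 and MCM7 had log2 fold changes of 0.23, 0.23 and 0.17 in KO with no overlap with WT, and adjusted p of 0.153, 0.118 and 0.314. MCM3 had -0.10 in KO and -0.22 in OE. ORC6, CDC6 and GMNN, the latter an inhibitor of relicensing, had log2 fold changes between -0.09 and 0.09 against WT, and CDT1 had -0.33 in OE (adjusted p = 0.122).

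Of the genes that turn the ring into a helicase, MCM10, a factor needed for origin firing, fell in the OE-labelled libraries. Its levels were 42.2, 40.4 and 49.3 CPM in WT, 46.6, 44.8 and 44.6 in KO, then 31.1, 23.9 and 33.3 in OE, and the OE range lay below the others. The log2 fold change was -0.57 ± 0.15 against WT (adjusted p = 0.0154). It was lost without WT replicate 3 (adjusted p = 0.0865), without OE replicate 2 (adjusted p = 0.0668) and after correction for transcript length (-0.35, adjusted p = 0.0653). GINS2, a subunit of the GINS complex, leaned the other way, with 78.4, 91.0 and 71.3 CPM in WT, 76.6, 72.1 and 70.0 in KO, then 88.6, 118 and 102 in OE. The difference passed against KO (0.49 ± 0.14, adjusted p = 0.0089) and not against WT (0.36 ± 0.14, adjusted p = 0.0742). GINS3, of the same complex, had 58.1, 65.2 and 55.1 CPM in WT, 72.5, 77.3 and 74.0 in KO, then 65.4, 67.9 and 71.1 in OE, and was not called (0.33 ± 0.12 in KO, adjusted p = 0.0762). CDC45 and GINS4 had log2 fold changes between -0.28 and 0.04 against WT, with no call.

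POLA1 and POLA2, subunits of the same polymerase, moved in opposite directions in the OE-labelled libraries, and POLE fell. POLE, the catalytic subunit of the leading strand polymerase epsilon, had 77.3, 54.2 and 83.3 CPM in WT, 74.3, 88.4 and 79.3 in KO, with 40.6, 41.9 and 38.9 in the OE-labelled libraries. All 3 OE values lay below every other library, and the difference from WT was -0.82 ± 0.16 on the log2 scale (adjusted p = 0.00227). POLE2, its second subunit, had a log2 fold change of 0.24 ± 0.23 (adjusted p = 0.497), with WT replicates spread from 8.25 to 18.3 CPM. POLA1, the catalytic subunit of polymerase alpha, had 43.3, 45.4 and 49.1 CPM in WT, 44.5, 49.5 and 57.3 in KO, then 36.1, 22.7 and 29.5 in OE, and fell by 0.64 on the log2 scale against WT (SE 0.17, adjusted p = 0.0147). POLA2, the subunit that tethers it, rose: it had 17.6, 17.2 and 14.6 CPM in WT, 16.7, 16.1 and 14.1 in KO, then 20.5, 35.4 and 22.9 in OE. Its log2 fold change was 0.66 ± 0.20 against WT (adjusted p = 0.0279) and 0.74 ± 0.20 against KO (adjusted p = 0.00785). OE replicate 2 is the highest library for POLA2 and the lowest for POLA1. Without it the calls against WT were lost for both (POLA2 adjusted p = 0.143, POLA1 adjusted p = 0.0611), and 39.44% of the exon bases of POLA2 are shared with other genes, and reads there were left out of the counts. The exons of MCM2, GINS4, PRIM1, TIPIN and CCNE2 share 21.14% to 37.14% in the same way. POLA2 was also not called against WT without WT replicate 1 (adjusted p = 0.067) or WT replicate 3 (adjusted p = 0.118), nor POLA1 without WT replicate 3 (adjusted p = 0.0632).

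POLD3, an accessory subunit of polymerase delta, is named beyond the rule because it was the remaining call: 41.5, 42.8 and 47.9 CPM in WT against 31.3, 29.7 and 37.1 in OE (log2 fold change -0.43 ± 0.15, adjusted p = 0.0465). That p sits at the threshold, and leaving out any of 7 single libraries raised it over 0.05, up to 0.184 without WT replicate 3. With the correction for transcript length it was called at -0.49 (adjusted p = 0.0183). POLD1, the catalytic subunit of delta, differed by -0.30 ± 0.14 on the log2 scale (adjusted p = 0.128). The primase genes PRIM1 and PRIM2 had -0.29 and -0.07, and neither was called. In KO 0 of the 8 polymerase and primase genes were called by edgeR, DESeq2 or limma-voom, 0 had an unadjusted p under 0.05, and log2 fold changes ran from -0.16 to 0.17. Over all genes tested, edgeR called 18.8% in KO, and 30.9% had an unadjusted p under 0.05.

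The sharpest fall was in the clamp loader. RFC1, its large subunit (chr4:39287456-39366375), had 99.95, 83.5 and 122 CPM in WT, 106, 128 and 139 in KO, with 51.02, 44.3 and 48.9 in the OE-labelled libraries. All 3 OE libraries lay below the lowest of the other 6, and the log2 fold change was -1.08 ± 0.15 against WT (adjusted p = 0.000347) and -1.37 ± 0.15 against KO (adjusted p = 5.99e-06). Of the small subunits, RFC2, RFC3, RFC4 and RFC5 had log2 fold changes of -0.03, -0.21, -0.06 and 0.10 against WT, with no call. RFC3 instead stood out in KO, with 98.7, 116 and 108 CPM in WT, 145, 145 and 157 in KO, then 96.1, 92.1 and 90.7 in OE. Every KO value was above every other, and the rise was 0.47 ± 0.11 (adjusted p = 0.00752), lost without WT replicate 1 (0.42, adjusted p = 0.0523). OE against KO, RFC3 differed by -0.68 ± 0.11 (adjusted p = 0.000238).

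**Figure D3:**
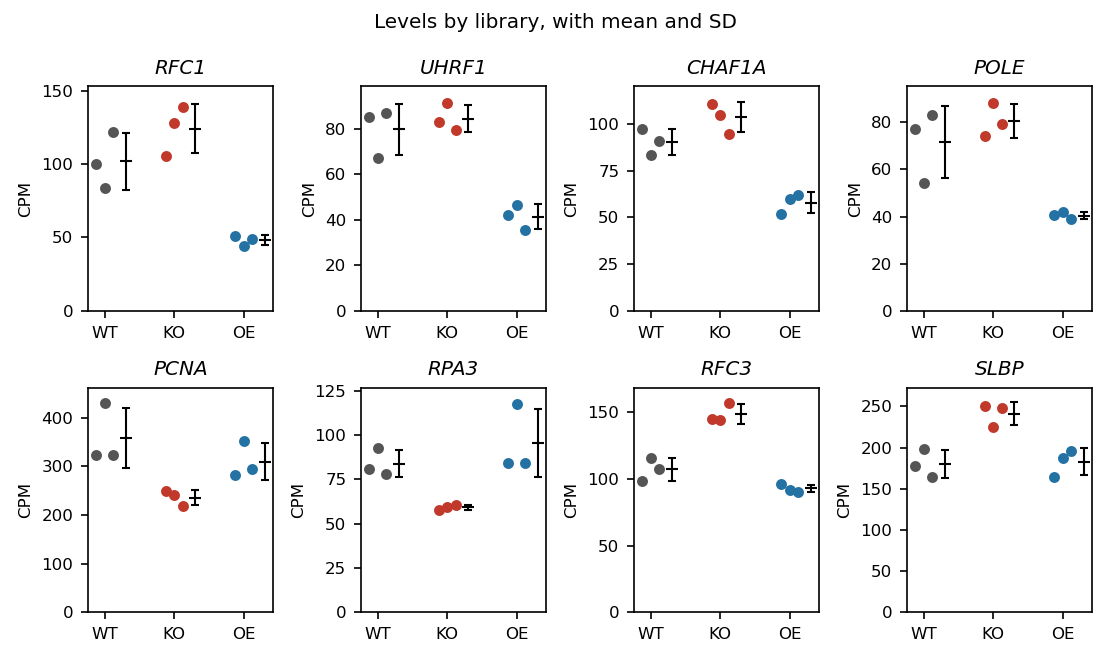
CPM (y axis, from 0) in each library (points) with mean and SD of the 3 libraries (bar) for 8 members, by group. RFC1, UHRF1, CHAF1A and POLE in OE, and PCNA, RPA3, RFC3 and SLBP in KO, lie apart from the WT libraries.

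RPA3, the smallest subunit of the RPA complex that coats single-stranded DNA, had 81.0, 92.7 and 78.0 CPM in WT, 57.9, 59.5 and 60.5 in KO, then 84.4, 118 and 84.3 in OE. KO lay below both other groups, by -0.50 ± 0.15 against WT (adjusted p = 0.0227). That call was lost when WT replicate 1 or 2 or any 1 KO library was left out (adjusted p = 0.0557 to 0.0804). The 51 tested genes around RPA3 on chromosome 7 had a median log2 fold change of -0.25 in KO. RPA2, the middle subunit, was called only for OE against KO (0.46 ± 0.13, adjusted p = 0.00987), with 74.5, 80.8 and 84.3 CPM in KO and 120, 117 and 94.2 in OE, and that was lost after correction for transcript length (0.16, adjusted p = 0.289). RPA1, the large subunit, had log2 fold changes of 0.07 and -0.06 against WT. RPA2 and PCNA have 3 named pseudogenes each and RPA3 has 2, and reads that map to several places were left out of the counts.

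PCNA, the sliding clamp, had the largest change of a member in KO. It had 324, 429 and 322 CPM in WT, 249, 241 and 218 in KO, then 282, 352 and 294.5 in OE. It is named beyond the rule, since 3 genes of its role group had a smaller p. KO lay below both other groups, for a log2 fold change of -0.60 ± 0.13 against WT (adjusted p = 0.00349), called under all 21 other settings tried. PCNA (chr20:5114953-5126626) was also the only member in a stretch of chromosome shifted as a whole between KO and WT. Of its 27 tested protein-coding neighbours within 2 Mb, 27 were lower in KO, 18 of them called lower and 0 higher, with a median log2 fold change of -0.72. The neighbours' median was -0.61, -0.69 and -0.67 in the 3 KO libraries and -0.06 in OE against WT. The stretch ran from 270863 to 21514064 on chromosome 20, with 98 of 105 genes lower. E2F1, on the same chromosome at 33675477, lay outside it and had a log2 fold change of -0.09. The part of the stretch in the fall of PCNA was not tested.

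**Figure D4:**
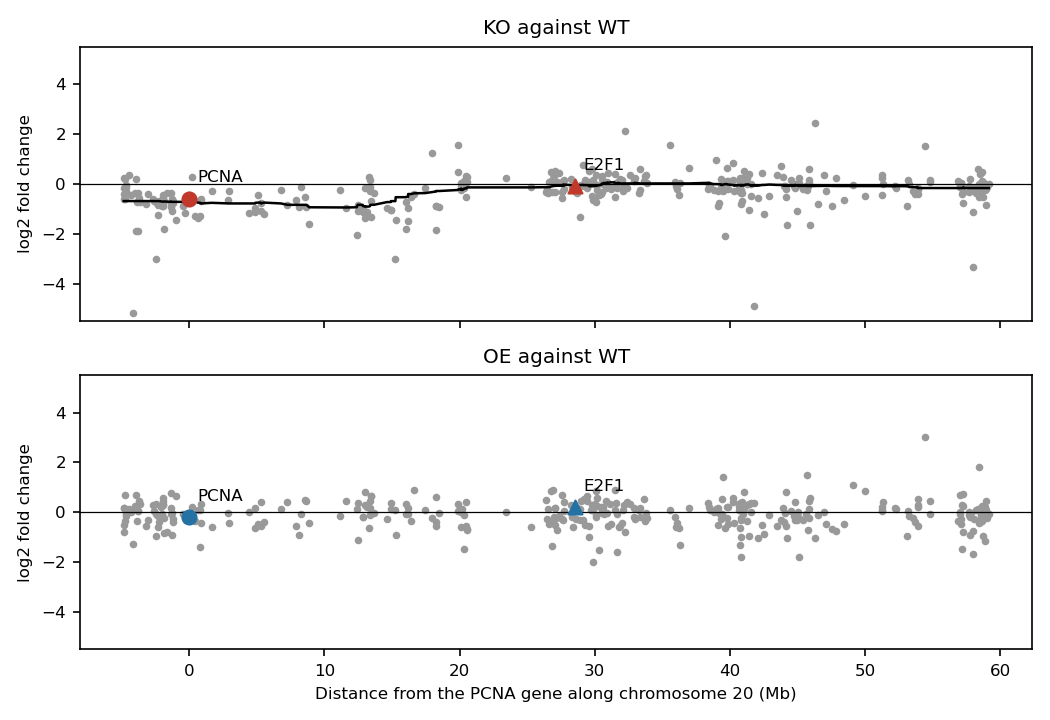
Log2 fold change (y axis) of each tested gene on chromosome 20 by distance from PCNA (x axis, Mb), in KO (top, with the running median over 51 genes as a line) and in the OE-labelled libraries (bottom). In KO the running median is -0.75 at PCNA, whose own value is -0.60, and returns to the zero line near E2F1. In OE the 27 neighbours of PCNA have a median of -0.06.

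Okazaki fragment maturation had 0 calls by edgeR, DESeq2 or limma-voom, and 0 at an unadjusted p under 0.05. Only 2 of its genes were tested, and edgeR called 18.8% of all genes in KO, 20.7% in OE and 39.7% for OE against KO. The 0 calls thus do not show that the group was unchanged. FEN1, the flap nuclease, had 225, 241 and 203 CPM in WT, 248, 217 and 218 in KO, then 221, 265 and 224 in OE. LIG1, the ligase, had 82.1, 67.3 and 69.2 in WT, 69.5, 63.8 and 56.4 in KO, then 60.7, 74.7 and 61.9 in OE. The groups overlapped for both, and the log2 fold changes were between -0.21 and 0.09. RNASEH2A, the catalytic subunit of the nuclease that removes RNA primers, was not tested: it had 0 to 12 counts per library. Its exons share 53.26% of their bases with THSD8, which had 0 to 1 counts, and reads in shared bases are left out.

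Nucleotide supply had 0 of 4 genes called against WT in either comparison by edgeR, DESeq2 or limma-voom, and at an unadjusted p under 0.05 only TYMS in KO. Over all genes tested, edgeR called 18.8% in KO and 20.7% in OE, so 0 of 4 does not show that the group was unchanged. RRM2, the regulated subunit of ribonucleotide reductase, had 388, 426 and 396 CPM in WT, 358, 379 and 388 in KO, then 404, 389 and 397 in OE. TK1, thymidine kinase, had 131, 162 and 121 in WT, 180, 159 and 135 in KO, then 141, 189 and 147 in OE, with wide overlap. TYMS, thymidylate synthase, had 49.9, 58.0 and 52.0 in WT, 66.7, 72.1 and 62.0 in KO, then 50.9, 54.4 and 62.6 in OE. KO lay above WT, but the log2 fold change of 0.33 ± 0.13 did not pass (adjusted p = 0.101). TYMS was called with a correction for transcript length (0.41, adjusted p = 0.0217). TYMS shares 47.5% of its exon bases with TYMSOS and ENOSF1, so its level is uncertain. RRM1, the large subunit of the reductase, had log2 fold changes of 0.06 and -0.01.

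Among the chromatin genes, UHRF1, which reads hemimethylated DNA behind the fork and brings in the maintenance methyltransferase, fell in the OE-labelled libraries. It had 85.1, 66.9 and 86.8 CPM in WT, 82.7, 91.2 and 79.4 in KO, then 42.0, 46.6 and 35.6 in OE. All OE values were below all others, for a log2 fold change of -0.95 ± 0.15 against WT (adjusted p = 0.000587). CHAF1A, the large subunit of the histone chaperone CAF-1, had 97.0, 83.1 and 90.6 CPM in WT, 111, 105 and 94.8 in KO, then 51.7, 59.7 and 62.2 in OE, again without overlap (-0.64 ± 0.13, adjusted p = 0.00314). CHAF1B, of the same chaperone, was not called (-0.03 ± 0.14, adjusted p = 0.902). SLBP, which binds the stem-loop of histone mRNA, rose in KO: 178, 198 and 164 CPM in WT, 250, 225 and 248 in KO, then 164, 187 and 196 in OE (0.42 ± 0.12, adjusted p = 0.0167). KO lay above all other libraries, though the call against WT was lost when WT replicate 1 or 3, or KO replicate 1 or 3, was left out (adjusted p = 0.0536 to 0.0686). TIPIN, of the fork protection complex, had a log2 fold change of 0.31 ± 0.18 in OE (adjusted p = 0.239) and was not called.

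Of the G1/S regulators, CCNE1 (cyclin E1) rose in KO, with 66.4, 65.9 and 64.8 CPM in WT, 95.1, 92.2 and 79.0 in KO, then 61.0, 82.3 and 69.3 in OE. KO lay above WT and overlapped OE. The log2 fold change was 0.43 ± 0.14 (adjusted p = 0.0332), and 5 of the 6 fits without 1 of the WT or KO libraries lost it (adjusted p = 0.0642 to 0.122), as did 2 other scalings. CCNE2 (cyclin E2) had 18.8, 18.3 and 25.1 CPM in WT, 17.2, 19.1 and 21.1 in KO, then 21.8, 7.88 and 15.2 in OE and was not called, OE replicate 2 being the lowest of the 9 libraries (log2 fold change -0.46 ± 0.26, adjusted p = 0.224). E2F1, an activator of S-phase genes, had 137, 150 and 132 CPM in WT, 151, 132 and 110 in KO, then 152, 181 and 145 in OE, with no call. E2F2, another activator, had 38.1, 33.1 and 37.8 in WT, 41.9, 34.4 and 34.2 in KO, then 24.9, 31.7 and 26.5 in OE. It was lower in OE than in KO by 0.41 on the log2 scale (adjusted p = 0.0405), a call that 10 of the other settings ended.

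Per kb of transcript, PCNA had the highest level of the members in WT (265 CPM per kb), followed by MCM7 (140), RPA3 (131), TK1 (120), RRM2 (118), SLBP (111) and MCM3 (109). POLA2 (4.41), E2F2 (7.0) and GINS4 (7.24) were the lowest of those tested. POLA2 and GINS4 share 39.44% and 23.43% of their exon bases with other genes, and reads there were left out, so their levels are uncertain. Subunits of 1 complex differed on this measure: RPA3 had 131 and RPA1 76.1 CPM per kb, and RFC3 had 55.6 and RFC1 20.9. The value of RPA3 rests on a median transcript of 640.5 nt, while its joined exons are 3232 nt. In OE the level of RFC1 was 9.89 CPM per kb and that of RFC3 48.1.

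Transcript length moved with the OE label, and 6 of the 7 members that fell were in the longer 2 of 5 length classes, POLD3 (2122 nt) lying in the middle class. The slope of log2 CPM on log2 transcript length, relative to the mean of all libraries, was -0.09, -0.26 and -0.10 in the OE-labelled libraries, 0.08, -0.07 and 0.13 in WT and 0.05, 0.11 and 0.15 in KO. Over all genes, the median log2 fold change of OE against WT ran from 0.27 in the shortest of the 5 classes of equal size to -0.35 in the longest. For members it was 0.14 in the shortest class and -0.57 in the longest. Members called lower numbered 0, 0, 1, 2 and 4 of the 6, 12, 8, 15 and 7 in the classes from short to long, and 29.2% of all genes in the longest class were called lower. After the fit was corrected for that trend, a setting added after the data were seen, RFC1 (-0.81 ± 0.11, adjusted p = 8.47e-05), UHRF1 (-0.81 ± 0.13, adjusted p = 0.000368), CHAF1A (-0.53 ± 0.12, adjusted p = 0.00374) and POLD3 (-0.49 ± 0.14, adjusted p = 0.0183) were still called lower than WT. POLE (-0.35 ± 0.13, adjusted p = 0.0563), POLA1 (-0.34 ± 0.14, adjusted p = 0.0858) and MCM10 (adjusted p = 0.0653) were not. A correction by gene length, all exons of a gene joined, kept all 7 calls, with POLE at -0.41 (adjusted p = 0.0329), POLA1 at -0.53 (adjusted p = 0.0172) and MCM10 at -0.54 (adjusted p = 0.0117). With the correction for transcript length, POLA2 was called higher than in WT with a larger value (0.82 ± 0.21, adjusted p = 0.00896). Under that same correction PCNA was called lower in OE than in WT (-0.41 ± 0.09, adjusted p = 0.00401) and GINS2 higher (0.38 ± 0.13, adjusted p = 0.0365). 

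**Figure D5:**
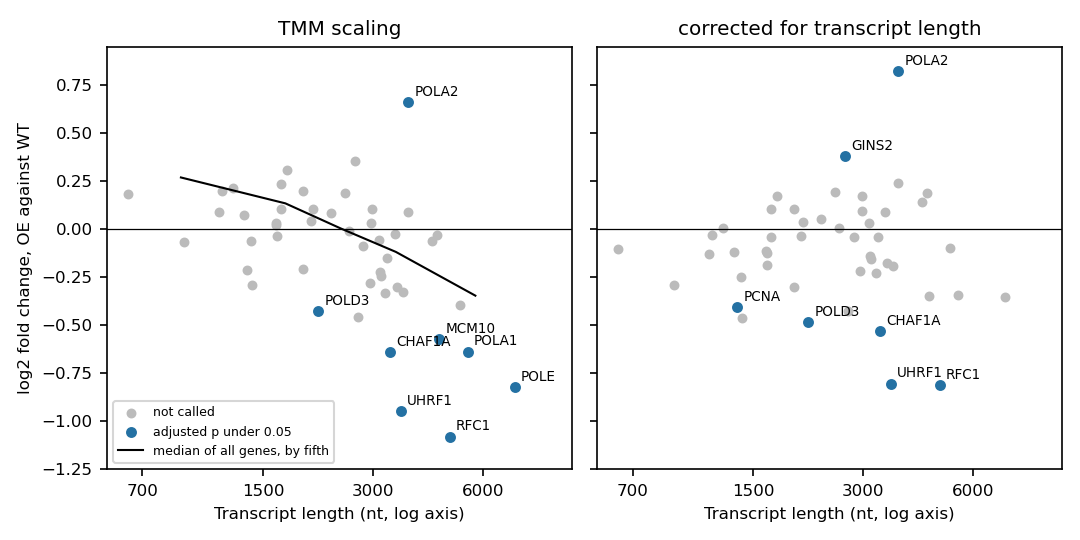
Log2 fold change of OE against WT (y axis) of each tested member by transcript length (x axis, nt, log axis), under TMM scaling (left, with the median of all genes in 5 length classes as a line) and after correction for transcript length (right), with blue points for an adjusted p under 0.05. The line falls from 0.27 to -0.35, and RFC1, UHRF1, CHAF1A and POLD3 stay blue on the right while POLE, POLA1 and MCM10 do not.

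The same counts were taken for other genes of the pathway. Of 43 other replication genes, 42 were tested. In KO 1 was called higher (RRM2B, the p53-inducible subunit of ribonucleotide reductase, 0.99 ± 0.15, adjusted p = 0.000127) and 2 lower, with a median of 0.05. These are 2.38% and 4.76% of the 42, beside 9.16% and 9.6% of all genes. MCM8, 1 of the 2 lower (-0.67, adjusted p = 0.0201), lies in the shifted stretch of chromosome 20 that holds PCNA. In the OE-labelled libraries 1 was higher (POLE4, a small subunit of polymerase epsilon, 1.01 ± 0.18, adjusted p = 0.00174) and 10 lower, with a median of -0.07. The latter included DNMT1, the maintenance methyltransferase that UHRF1 brings to the fork (-1.09 ± 0.15, adjusted p = 0.000282; -0.78 with the correction for transcript length), TOP2A, topoisomerase II alpha (-0.58 ± 0.11, adjusted p = 0.00256), SAMHD1, which degrades deoxynucleotides (-0.58 ± 0.12, adjusted p = 0.00427), and SUPT16H of the histone chaperone FACT (-0.45 ± 0.11, adjusted p = 0.0114). The share called lower in OE was 23.8%, beside 11% of all genes and 14.6% of the members. The share called higher was 2.38%, beside 9.65% of all genes. These shares were not matched for transcript length, and 29.2% of all genes in the longest of the 5 length classes were called lower.

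Of 29 genes that control G1 and S phase, 28 were tested, and 7 were higher and 2 lower in KO (25% and 7.14%, beside 9.16% and 9.6% of all genes). SKP2, which marks CDK inhibitors for breakdown, rose by 0.77 ± 0.11 (adjusted p = 0.000109). It lies in a stretch of chromosome 5 whose 51 genes had a median of 0.45 in KO. CDK6, a G1 kinase, rose by 1.13 ± 0.17 (adjusted p = 0.00018), and CDKN1A, the CDK inhibitor p21, fell by 0.72 on the log2 scale (SE 0.12, adjusted p = 0.000404). In OE 2 were higher and 4 lower (7.14% and 14.3%, beside 9.65% and 11% of all genes, not matched for transcript length). CCND3 (cyclin D3) rose by 0.57 ± 0.13 (adjusted p = 0.00593), E2F7, a repressor of E2F targets, fell by 0.99 (SE 0.22, adjusted p = 0.00523), CCND2 (cyclin D2) fell by 0.67 (adjusted p = 0.00852) and CDKN1A fell by 0.53 (adjusted p = 0.00669). CDKN1A was thus lower in both, in comparisons that share the WT libraries.

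Of 30 mitotic genes, 29 were tested, with 4 higher and 2 lower in KO (13.8% and 6.9%, beside 9.16% and 9.6% of all genes). In OE 2 were higher and 8 lower (6.9% and 27.6%, beside 9.65% and 11% of all genes, again not matched for transcript length). MKI67, the proliferation antigen Ki-67, had 233, 94.5 and 303 CPM in WT, 127, 158 and 169 in KO, then 43.1, 23.0 and 35.5 in OE. All OE libraries lay below all others (log2 fold change against WT -2.63 ± 0.31, adjusted p = 0.000104), with WT replicate 2 well below the other WT libraries. CENPF, a kinetochore protein, fell likewise (-2.43 ± 0.27, adjusted p = 6.17e-05). With the correction for transcript length these were -1.89 and -2.08. CCNB1 (cyclin B1) and PTTG1 (securin) fell in KO, by 0.76 and 0.90 on the log2 scale (adjusted p = 0.000121 and 0.00013), and PTTG1 rose in OE by 0.54 (adjusted p = 0.00871). The lowest member in OE was RFC1, at -1.08.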

How the data were processed

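Polyadenylated RNA of 9 H295R libraries was measured by sequencing. Read counts per gene, whole numbers and not normalized, were deposited by the authors in 1 file per library. Per the file headers they were made with featureCounts 1.5.2 on Ensembl release 101 (GRCh38) with default counting, in which strand plays no part and a read with several map positions, or within 2 genes at once, is dropped. Genes with overlapping partners or pseudogenes are thus uncertain in level. The submitters' processing notes list HISAT2 1.03, FastQC, DESeq2, Subread and, unlike the headers, featureCounts 0.1.0.

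Differences were tested with edgeR 4.0.16 (glmQLFTest, R 4.3.3) on the counts: scaled by TMM, filtered by filterByExpr (minimum count 10), all 9 libraries in 1 fit by group, and Benjamini-Hochberg adjustment over the 14150 genes tested. Genes with an adjusted p under 0.05 are called. Each adjusted p is from this test unless another is named. CPM are relative to TMM-scaled totals. Levels per kb and length checks use the median transcript length of GENCODE release 29, known for 99.4% of genes tested. DESeq2 1.42.0, limma 3.58.1 (voom), other scalings and filters, a length correction and leaving out each library were alternatives.

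The members and gene lists were chosen with earlier results of these data known, so no list was tested. Values by library are given for up to 3 members of each role group with the smallest adjusted p in any of the 3 comparisons, and for MKI67 and SGPL1. Up to 6 genes of each other list are named by their smallest adjusted p against WT. The exception is single cell type markers, which were named after their values were seen. POLD3, PCNA, RPA2, CCNE2 and, of the other replication genes, MCM8 were added after their values were seen. Replicate numbers were not taken as pairs in the main fit.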

Additional observations from a re-analysis of the deposited data

How the results depend on the processing

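Of the values of single members under other settings, 2905 kept their side of the threshold, 64 lost a call, 52 gained one and 3 reversed. The members called higher in KO against WT numbered 3, and 5 with a correction for gene length, 5 for transcript length and 5 with WT replicate 2 and OE replicate 2 both left out. Leaving out 1 library gave 0 to 3, with 0 without WT replicate 1 and 1 without WT replicate 3 or KO replicate 1. The 2 called lower became 1 without the shifted chromosome stretches and 1 to 2 with 1 library left out (PCNA in each case, 1 without WT replicate 1 or 2 or any KO library). In OE against WT the 1 called higher became 0 with library totals alone, 2 with transcript length and 0 with both replicates 2 left out, and 0 to 2 with 1 library left out. The 7 called lower became 13 with library totals alone, 12 with a correction for gene length, 5 with one for transcript length (POLD3, RFC1, CHAF1A, UHRF1 and, gained, PCNA), and 4 to 7 with 1 library left out (4 without WT replicate 3 or OE replicate 2, namely POLE, RFC1, CHAF1A and UHRF1). In OE against KO the 11 called lower became 17 with gene length (9 to 13 with 1 library left out) and the 5 called higher became 3 with transcript length (4 to 6). With the replicate number as a block, OE against WT had 2 members higher and 8 lower in place of 1 and 7. Over all genes that comparison then had 1820 higher and 1937 lower, in place of 1365 and 1559. Same-numbered libraries correlated at -0.138 to 0.246 in their deviations from the group means, and libraries with different numbers at -0.281 to 0.224. The numbers were not taken as pairs in the main fit, and whether they mark a pairing was not tested. SGPL1 in OE against WT moved from -0.01 to 0.322 with a correction for transcript length. FEN1 and TK1 in OE against KO reversed with gene length (-0.243 and -0.324), and TK1 with transcript length (-0.312). The cause of these shifts was not tested. With 3 libraries per group and 6 residual degrees of freedom, small differences are not detectable at this depth, and RNASEH2A is not measurable.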
